A study of Mus musculus with 7 samples.

Results

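Epithelial cells hold on to their neighbours through adherens junctions, and 10 genes of these junctions are described here in the mouse endometrial epithelium: the cadherins Cdh1, Cdh2 and Cdh3, the catenins Ctnna1, Ctnnb1 and Ctnnd1, the scaffold Afdn, and the nectins Nectin2, Nectin3 and Nectin4. They were chosen by name, 10 of the 53379 gene IDs in the count tables, and 9 of them had enough reads to be tested among 14610 genes. The mutant group was 4 libraries, each from an individual CD-1 mouse of 120 days with the genotype LtfCre0/+; Brg1fl/fl. Brg1 is the gene Smarca4, whose product is the motor of the nucleosome remodeller SWI/SNF, and the Ltf promoter drives Cre in the epithelium of the female reproductive tract. The control group was 3 libraries of wild-type CD-1 epithelium, each from pooled mice whose age the labels do not give, taken over from an earlier series and marked as a first flow cell. In both groups the uteri were digested and the cells were sorted magnetically with an EpCAM antibody, and reverse-stranded reads per gene were counted. Genotype, sequencing series, pooling and possibly age therefore differ together between the groups and cannot be told apart.

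An adherens junction is built from 2 adhesion systems. Classical cadherins bind cadherins of the next cell through calcium-dependent extracellular repeats, and their cytoplasmic tails carry p120-catenin near the membrane and β-catenin further along, with α-catenin joining β-catenin to actin. Nectins are immunoglobulin-like adhesion molecules that bind nectins on the next cell, in like or unlike pairs, and their tails bind afadin, which also reaches actin. E-cadherin, the product of Cdh1, is the cadherin of uterine luminal and glandular epithelium, and its removal is a hallmark of the loss of epithelial character. β-catenin also acts in the nucleus as the transcriptional arm of canonical Wnt signalling.

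The targeted gene and the purity of the cells were looked at first. Smarca4 was at 87.6, 56.7, 86.9 and 105.4 CPM (counts per 1000000 reads, scaled between libraries by the TMM method of edgeR) in mutants 1 to 4 and at 263, 245.4 and 279.4 CPM in controls 1 to 3, a log2 fold change of −1.64 ± 0.23 (SE; edgeR quasi-likelihood test, adjusted p = 0.00967). All mutants lay under all controls, as the labels say, with reads of the gene left in every mutant, and the adjusted p was 0.00679 to 0.0612 with 1 library left out, under the threshold in 4 of 7 such fits. Gene reads numbered 12436971 to 13364080 in mutants and 21372036 to 25862245 in controls, so that 3 reads were worth 0.224 to 0.241 and 0.116 to 0.14 per 1000000 gene reads, before TMM scaling. The sort antigen Epcam was at 573.6 to 743.2 CPM in mutants, against 822.5 to 966.2 CPM in controls (log2 fold change −0.38 ± 0.18, adjusted p = 0.206 in edgeR), and the summed level of 11 epithelial markers was 8044 to 11430 CPM against 16350 to 20740 CPM. Mutant 1 stood apart from the other mutants, with the proliferation gene Mki67 at 12.3 CPM against 193.4 to 368.8 CPM, and calls of the junction genes, and counts of the lists of other genes, are given without it where they change.

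Of the 9 tested genes, 1 passed the threshold of an adjusted p of 0.05 in edgeR (Benjamini-Hochberg over 14610 genes): Cdh1, which fell. In all, 11.5% of the tested genes passed in either direction and 6.18% fell, so the share of the junction genes is near that of the whole table. Mutants and controls did not overlap for 3 of the 9 genes, Cdh1 and Ctnna1 with all mutants lower and Nectin4 with all mutants higher, while 31.5% of all tested genes were without overlap. The median log2 fold change of the 9 genes was −0.37, beside 0.06 over all tested genes; with libraries scaled by their total count alone these medians were 0.03 and 0.41. Without mutant 1, 4 of 9 genes passed (Cdh1, Ctnna1 and Ctnnd1 lower, Nectin3 higher), where 29.5% of 14903 genes did.

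**Figure D1:**
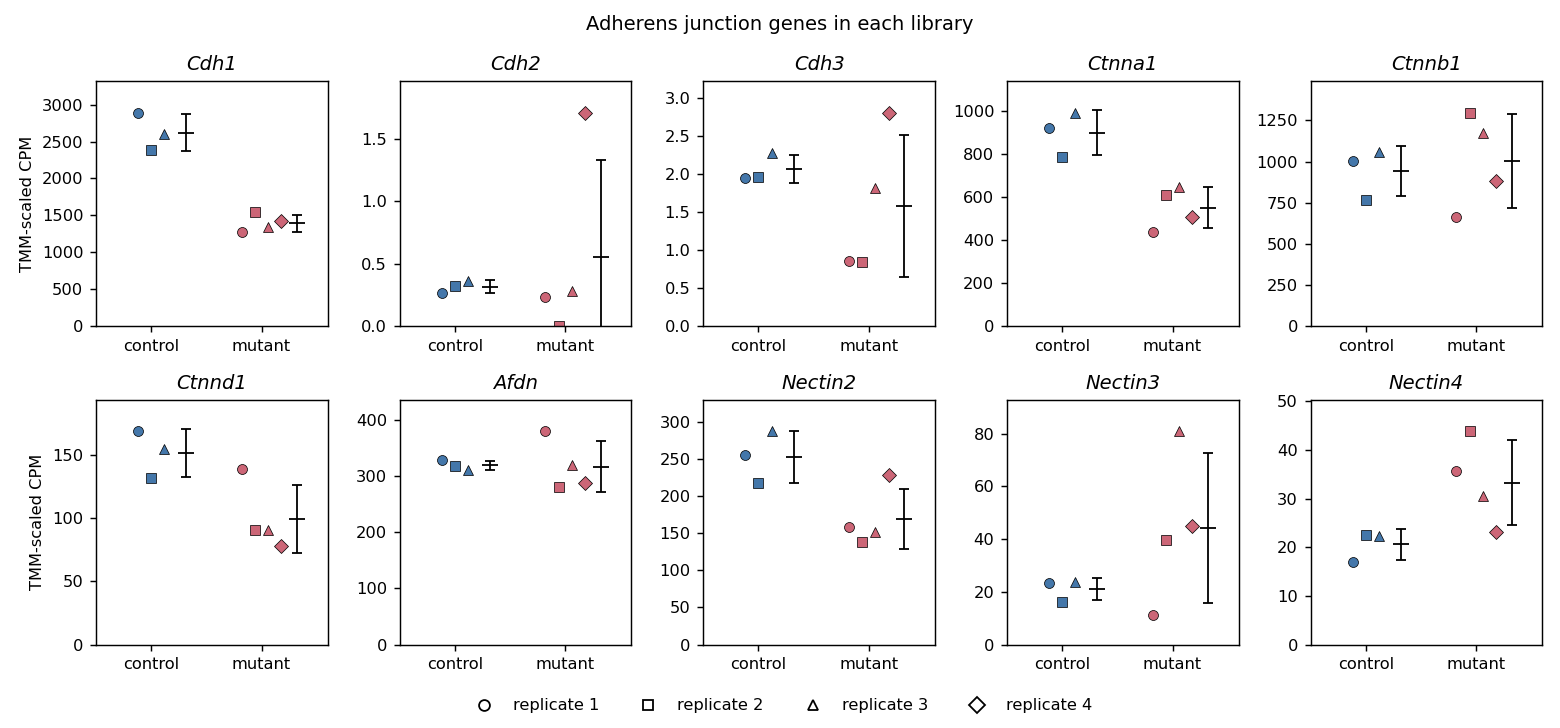
TMM-scaled CPM (y axis, linear, from 0) of the 10 adherens junction genes in each library; blue symbols are the 3 controls and red symbols the 4 mutants, the symbol shape gives the replicate number, which does not pair libraries across groups, and the bar is the mean ± SD of the group (cut at 0 for Cdh2). The groups are apart for Cdh1, Ctnna1 and, narrowly, Nectin4, and among the mutants 1 library lies far from the rest for Cdh2.

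Levels between genes can be compared only per length, and per kilobase of exon Cdh1 was the most abundant of the 10 in both groups. Its mean level per length was 573.2 ± 55.4 CPM per kilobase in controls (SD, n = 3) and 304.4 ± 25.9 CPM per kilobase in mutants (SD, n = 4). In controls the levels per length then ran through Ctnnb1 at 182.3, Ctnna1 at 139.9, Nectin2 at 72.6, Ctnnd1 at 53.6, Afdn at 31.2, Nectin4 at 5.5, Nectin3 at 1.65, Cdh3 at 0.47 and Cdh2 at 0.039 CPM per kilobase. The order of the group means was the same in mutants. Neighbours in this order whose library ranges overlapped were Ctnnb1 and Ctnna1 in controls, and in mutants Nectin2 and Ctnnd1, Ctnnd1 and Afdn, Nectin4 and Nectin3, and Cdh3 and Cdh2. In controls Ctnnd1 and Afdn changed places with the longest transcript or coding length, each taken in full, and the other 8 genes kept theirs. The full exon length of Ctnnd1 gave the same swap, at 20.76 CPM per kilobase against 31.24 for Afdn. The place of Ctnnd1 is uncertain, because 4482 of its 7319 exon bases are shared on the same strand with the annotated gene Gm28635, which had 0 reads in all 7 libraries; reads there count as ambiguous, and its level per length was taken over the other 2837 bases.

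**Figure D2:**
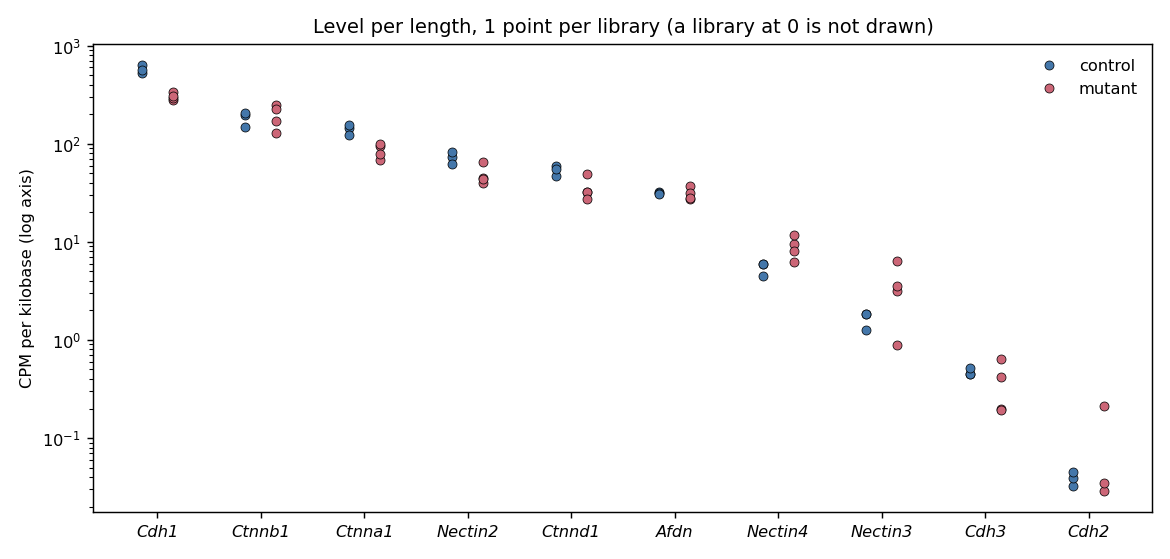
Level per length of each gene (y axis, CPM per kilobase, log scale), 1 point per library, blue for controls and red for mutants, ordered by the control mean; a library at 0 (Cdh2 in mutant 2) is not drawn. Cdh1 is on top at 520.7 to 631.2 in controls and 277.7 to 337.9 in mutants, and Cdh3 and Cdh2 lie under 1 in every library.

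Cdh1 (ENSMUSG00000000303.12, mm10, chr8:106603351-106670246, plus strand) had 1270, 1545, 1336 and 1419 CPM in mutants 1 to 4 and 2887, 2382 and 2597 CPM in controls 1 to 3. Every mutant lay under every control, and the mutants lay close to one another, mutant 1 included. The means were 1393 ± 119 CPM (SD, n = 4) and 2622 ± 254 CPM (SD, n = 3), a log2 fold change of −0.91 ± 0.20 (SE; 95% interval −1.38 to −0.45; edgeR adjusted p = 0.0307), or 1.88-fold lower. The authors' deposited table gives a log2 fold change of −0.90 ± 0.20 with an adjusted p of 0.000143 for Cdh1. The size of the fall was −0.96 to −0.81 with any 1 library left out, but the call was not: edgeR's adjusted p was 0.0541, 0.0886 and 0.0638 without mutants 2, 3 and 4 and 0.136, 0.104 and 0.125 without controls 1, 2 and 3, against 0.0150 without mutant 1. It was 0.0859 with total count scaling, where the log2 fold change was −0.56. In bulk RNA, fewer cells that express a gene and less of its RNA per cell cannot be told apart.

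The other classical cadherins were nearly absent next to Cdh1. Cdh3, which encodes P-cadherin (ENSMUSG00000061048.8, mm10, chr8:106510891-106557297, plus strand, just before Cdh1 on the chromosome), had 0.861, 0.844, 1.82 and 2.80 CPM in mutants 1 to 4, from 11, 11, 26 and 46 reads, and 1.95, 1.96 and 2.27 CPM in controls. Mutants 1 and 2 lay under the controls and mutant 4 over them, and the log2 fold change of −0.37 ± 0.50 (95% interval −1.53 to 0.79; edgeR adjusted p = 0.647) leaves a wide range at this depth. Cdh2 (ENSMUSG00000024304.14), the gene of N-cadherin, which replaces E-cadherin in many cells that leave an epithelium, had 3, 0, 4 and 28 reads in mutants 1 to 4 and 5, 6 and 8 reads in controls, too few to be tested. Mutant 4, with 1.71 CPM, was the exception among the mutants, the other 3 having 0 to 0.28 CPM and the controls 0.264 to 0.364 CPM. Summed mesothelial markers were also highest in mutant 4 among the mutants, 39.8 CPM against 9.39 to 18.6 CPM in the others, but lower than the 43.2 to 58.6 CPM of the controls; their part in the Cdh2 reads was not tested. Of the 3 cadherins per length, Cdh1 made up 99.73% to 99.94% in mutants and 99.90% to 99.92% in controls, and the ranges overlapped.

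Among the catenins, α-catenin RNA lay lower in the mutants and β-catenin RNA did not. Ctnna1, which encodes the α-catenin of epithelia (ENSMUSG00000037815.6), had 436.6, 608.8, 646 and 506.2 CPM in mutants 1 to 4 and 921.5, 784.3 and 991.1 CPM in controls 1 to 3. All mutants were under all controls, yet the log2 fold change of −0.71 ± 0.21 (95% interval −1.20 to −0.23) missed the threshold, with an adjusted p of 0.0667 in edgeR. It passed without mutant 1 (−0.57, adjusted p = 0.0411 in edgeR) and with DESeq2 (adjusted p = 0.0251, where 16.9% of 19305 genes passed). It also passed in the authors' deposited table (−0.69 ± 0.20, adjusted p = 0.00676). It did not pass with total count scaling (−0.355, adjusted p = 0.263) or with no filter on low counts (adjusted p = 0.124), both in edgeR. Nor did it with limma-voom (adjusted p = 0.0509) or, in edgeR, with any other library left out (adjusted p = 0.0978 to 0.219).

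Ctnnb1, the gene of β-catenin (ENSMUSG00000006932.17, mm10, chr9:120929216-120960507, plus strand), had 662.9, 1295, 1174 and 883.5 CPM in mutants 1 to 4 and 1003, 768.1 and 1055 CPM in controls 1 to 3. Mutant 1 was the lowest of the 7 libraries and mutants 2 and 3 were the highest, so that the controls lay inside the range of the mutants. The log2 fold change was 0.09 ± 0.28 (95% interval −0.56 to 0.74; edgeR adjusted p = 0.853). Its sign turned without mutant 2 (−0.05) and with unstranded counts (−0.09). Exons of the neighbouring gene Ulk4 overlap it on the opposite strand, which the strand-specific counts keep apart.

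Ctnnd1 (ENSMUSG00000034101.14, mm10, chr2:84600071-84650765, minus strand) encodes p120-catenin, which keeps cadherins at the membrane. It had 139.1, 91.1, 90.5 and 77.8 CPM in mutants 1 to 4 and 168.9, 131.7 and 155.3 CPM in controls 1 to 3, so that mutant 1 alone lay among the controls. The log2 fold change was −0.61 ± 0.23 (95% interval −1.15 to −0.07; edgeR adjusted p = 0.126), and −0.77 with an adjusted p of 0.0131 without mutant 1, both subject to the shared exons described above.

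Within a library the balance of the catenins can be read without any scaling. The log2 ratio of Ctnnb1 to Ctnna1 reads was 0.60, 1.09, 0.86 and 0.80 in mutants 1 to 4 and 0.12, −0.03 and 0.09 in controls 1 to 3. Every mutant had more Ctnnb1 reads per Ctnna1 read than any control, 1.72-fold more on average. This pair was picked after the values had been seen and has no test. Ctnna1 itself was lower in every mutant, and the share of all genes that lie apart relative to it was not measured. The ratio is therefore no result particular to Ctnnb1. Per length, Ctnna1 was 25.1% to 28.4% of the 3 catenins in mutants and 36.1% to 38.5% in controls, and Ctnnb1 was 52.3% to 66.4% in mutants and 46.9% to 49.4% in controls. Neither pair of ranges overlapped, and mutant 1, which was low for both genes, lay on the side of the other mutants. These shares have the same limit as the ratio.

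**Figure D3:**
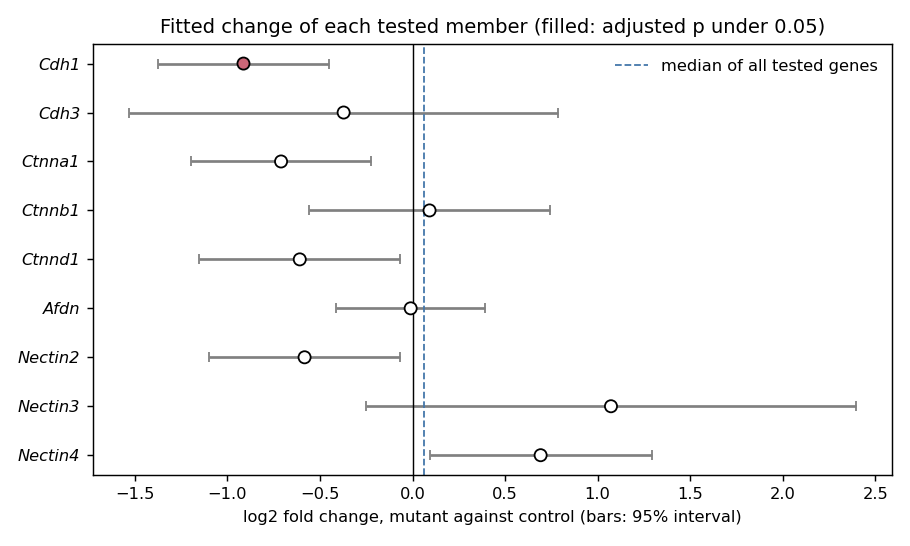
Fitted log2 fold change (x axis) of the 9 tested genes, mutant against control, with its 95% interval as a bar; the filled point passed an adjusted p of 0.05 in edgeR and the dashed line is the median of all tested genes, 0.06. Cdh1 alone is filled, at −0.91; the intervals of Ctnna1, Ctnnd1, Nectin2 and Nectin4 also miss 0, and those of Cdh3 and Nectin3 are the widest.

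Afadin RNA had like levels in both groups. Afdn (ENSMUSG00000068036.14, mm10, chr17:13760539-13906150, plus strand), whose product anchors nectins to actin, had 379.9, 280.2, 320.5 and 287.8 CPM in mutants 1 to 4 and 328.4, 318.7 and 311 CPM in controls 1 to 3. The controls fell within the mutant range, with mutant 1 the highest of the 7. The log2 fold change was −0.01 ± 0.17 (95% interval −0.41 to 0.39; edgeR adjusted p = 0.98), an interval that leaves out a fall as large as the estimate for Cdh1. Its sign turned with upper-quartile scaling (0.13) and total count scaling (0.34).

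The estimates of the nectins differed in sign, though none passed in edgeR with all libraries. The nectins also differed in level and in the sequence before their start, and a link between sequence and level or sign was not tested. Their promoters are shown for that reason, each from 250 bases before to 50 bases after the RefSeq start (GRCm38.p6), 5′ to 3′ on the strand of the gene, with GC boxes (GGGCGG or its reverse complement CCGCCC) and E-boxes (CAGGTG or its reverse complement CACCTG) in capitals. Nectin2 lies at chr7:19749524-19749823 (minus strand), Nectin3 at chr16:46496918-46497217 (minus strand) and Nectin4 at chr1:171369923-171370222 (plus strand).
Nectin2: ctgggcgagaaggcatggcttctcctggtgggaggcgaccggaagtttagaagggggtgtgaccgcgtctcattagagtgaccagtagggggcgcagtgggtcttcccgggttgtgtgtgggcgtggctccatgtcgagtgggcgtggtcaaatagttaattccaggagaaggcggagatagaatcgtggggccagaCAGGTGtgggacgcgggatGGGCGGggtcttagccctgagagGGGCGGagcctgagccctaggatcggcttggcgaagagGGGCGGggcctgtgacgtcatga
Nectin3: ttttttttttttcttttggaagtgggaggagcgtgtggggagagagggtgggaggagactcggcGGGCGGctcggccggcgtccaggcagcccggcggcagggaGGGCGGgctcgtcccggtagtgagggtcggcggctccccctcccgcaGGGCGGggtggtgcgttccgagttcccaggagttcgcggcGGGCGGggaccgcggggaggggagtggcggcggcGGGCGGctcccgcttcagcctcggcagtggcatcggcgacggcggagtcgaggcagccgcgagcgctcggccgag
Nectin4: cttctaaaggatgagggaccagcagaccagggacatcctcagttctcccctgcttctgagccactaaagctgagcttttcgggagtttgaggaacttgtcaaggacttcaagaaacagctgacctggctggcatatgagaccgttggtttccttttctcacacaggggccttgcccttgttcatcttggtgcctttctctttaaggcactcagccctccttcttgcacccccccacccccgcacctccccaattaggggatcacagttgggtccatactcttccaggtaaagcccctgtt
The Nectin2 window held 3 GC boxes, 1 E-box and 20 CpG dinucleotides, the Nectin3 window 5 GC boxes, no E-box and 40 CpG dinucleotides, and the Nectin4 window neither motif and 3 CpG dinucleotides. Of 32851 RefSeq promoters of the same length, 35.66% held a GC box and 20.21% an E-box, and the median promoter had 7 CpG dinucleotides. GC boxes are bound by Sp-family factors and the E-box letters are those of the Snail and Zeb repressors, as background; a match is a description of letters only. The table had promoters for 6 of the 10 genes, and those of Ctnnb1, Ctnnd1 and Afdn are not shown.

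Nectin2 (ENSMUSG00000062300.14, mm10, chr7:19716644-19750483, minus strand), the most abundant nectin per length, had 158.2, 138.1, 152 and 229.3 CPM in mutants 1 to 4 and 256.1, 217.4 and 287.4 CPM in controls 1 to 3. Mutants 1 to 3 lay under all controls and mutant 4 just over control 2, and the log2 fold change of −0.58 ± 0.22 (95% interval −1.10 to −0.07) did not pass (edgeR adjusted p = 0.126).

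Nectin3 (ENSMUSG00000022656.15, mm10, chr16:46387706-46498525, minus strand), whose product pairs strongly with nectin-1 and nectin-2, had 11.3, 39.8, 80.8 and 45 CPM in mutants 1 to 4 and 23.3, 16.2 and 23.6 CPM in controls 1 to 3. Mutants 2, 3 and 4 lay over all controls and mutant 1 under all of them. With the 4 mutants the log2 fold change was 1.07 ± 0.57 (95% interval −0.25 to 2.40; edgeR adjusted p = 0.243), and without mutant 1 it was 1.43 with an adjusted p of 0.0155, so that this single library decides the call.

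Nectin4 (ENSMUSG00000006411.12, mm10, chr1:171370099-171388598, plus strand), a nectin that is low in most adult tissues and high in many carcinomas, had 35.8, 43.8, 30.5 and 23.1 CPM in mutants 1 to 4 and 17, 22.5 and 22.3 CPM in controls 1 to 3. All mutants lay over all controls, mutant 4 only just. The log2 fold change of 0.69 ± 0.26 (95% interval 0.09 to 1.29; edgeR adjusted p = 0.12) did not pass. With total count scaling it was 1.02 with an adjusted p of 0.0263 in edgeR. In that setting the median of all tested genes was 0.41 and 80.5% of the called genes were higher. The authors' deposited table gives 0.71 ± 0.68 with an adjusted p of 0.532 for Nectin4. Per length, Nectin2 made up 72.7% to 87.1% of the 3 nectins in mutants and 89.5% to 92% in controls, without overlap, the rest being Nectin4 at 8.19% to 21.5% against 5.69% to 8.64% and Nectin3 at 1.59% to 10.9% against 1.83% to 2.3%.

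Relative to Cdh1 in the same library, 3 of the 8 other tested junction genes were higher in every mutant than in any control, and so were 50% of all tested genes. None of the 8 was lower in every mutant, beside 3.05% of all genes. Since Cdh1 itself was lower in the mutants, these counts are no result about the junction genes. The log2 ratio of Ctnnb1 to Cdh1 reads was −0.94, −0.26, −0.19 and −0.68 in mutants 1 to 4 and −1.52, −1.63 and −1.30 in controls 1 to 3, 1.96-fold higher on average. For Afdn to Cdh1 the ratio was −2.46 to −1.74 in mutants and −3.14 to −2.90 in controls, 1.86-fold higher, and for Nectin4 to Cdh1 −5.94 to −5.14 against −7.41 to −6.73, 2.99-fold higher. The ratios to Cdh1 of Ctnna1 (−1.54 to −1.05 against −1.65 to −1.39), Ctnnd1, Nectin2, Nectin3 and Cdh3 overlapped between the groups. Epcam, a gene of the sorted cells outside the junction, was also higher relative to Cdh1 in all mutants, −1.22 to −0.79 against −1.69 to −1.43. These ratios carry no test.

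**Figure D4:**
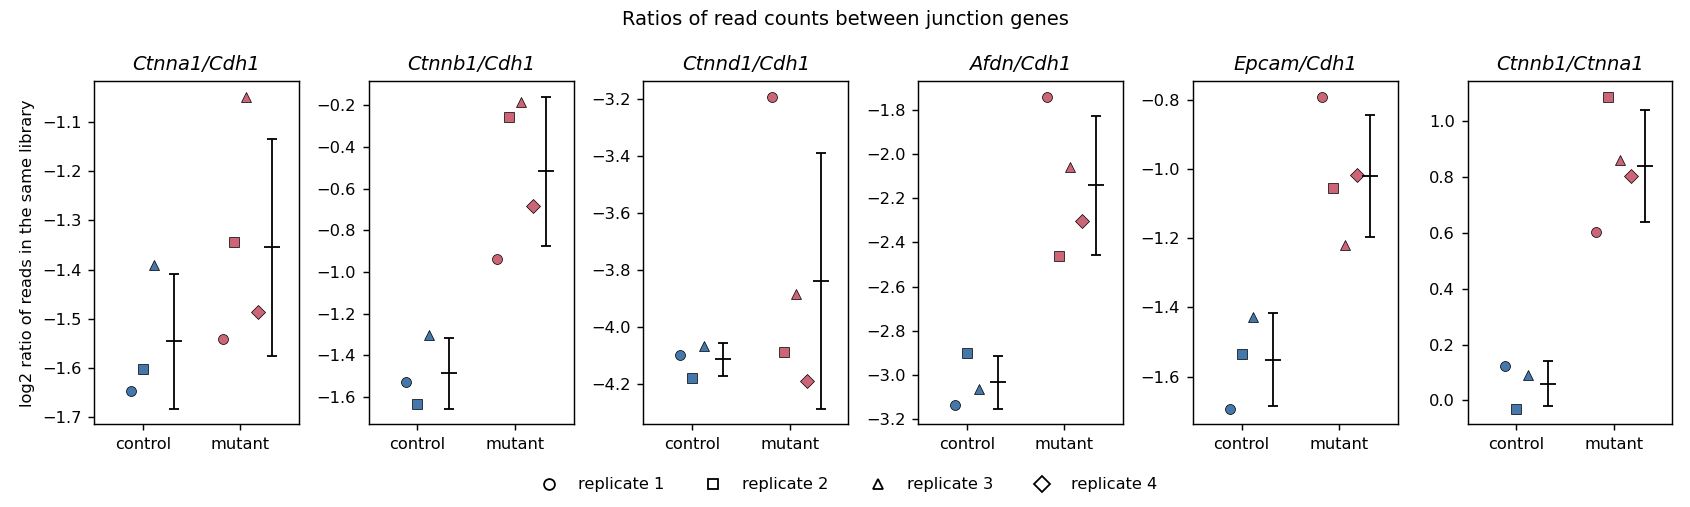
Log2 ratio of the reads of 2 genes in the same library (y axis, each panel with its own range), blue for controls and red for mutants, symbol shape for the replicate number, bar for the mean ± SD. The groups are apart for Ctnnb1/Cdh1, Afdn/Cdh1, Epcam/Cdh1 and Ctnnb1/Ctnna1, and overlap for Ctnna1/Cdh1 and Ctnnd1/Cdh1.

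Other parts of the junction were read from lists of genes by role. Among 20 genes that link junctions to actin, 7 fell and 0 rose (median log2 fold change −0.70, beside 0.06 over all genes), where 6.18% of all tested genes fell and 5.37% rose. Lmo7, which encodes an afadin- and α-actinin-binding protein, fell by 1.63 ± 0.34 on the log2 scale (edgeR adjusted p = 0.0273), and Vcl, the gene of vinculin, which α-catenin recruits under tension, fell by 1.61 ± 0.34 (edgeR adjusted p = 0.0278). Vcl had 675.1, 276.7, 306.3 and 390.2 CPM in mutants 1 to 4 and 1378, 1062 and 1328 CPM in controls 1 to 3, and every mutant lay well under the controls. Myh9, the non-muscle myosin heavy chain of the junctional actin belt, fell by 1.48 ± 0.27 (edgeR adjusted p = 0.0192), from 2932 to 1053 CPM in the group means. Vcl passed in 1 of 7 edgeR fits with 1 library left out, Lmo7 in 2 and Myh9 in 3. The other 4 that fell were Actn4, Shroom3, Limd1 and Camsap3, named after their values had been seen. Under total count scaling 4 of the 20 fell, as did 3.64% of all genes. Without mutant 1, 12 fell and 1 rose, where 14% of all genes fell and 29.5% passed in either direction. In edgeR, 3 fell without mutant 2 (6.75% of all genes passed) or mutant 4 (6.34%), 1 without mutant 3 (4.21%) and 0 without control 1, 2 or 3 (0.878%, 1.11% and 0.902%). These shares of all genes hold for the lists that follow too.

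Of 21 other cadherins, 17 were tested, 4 fell and 0 rose (median −0.43), beside 6.18% of all genes that fell. Fat1, an atypical cadherin with a very large extracellular part, had 323.5, 389.7, 380.2 and 331.8 CPM in mutants 1 to 4 and 967.3, 762.9 and 1005 CPM in controls 1 to 3, a log2 fold change of −1.36 ± 0.19 (edgeR adjusted p = 0.00955). The 4 mutants lay close together far under the controls. Cdh17, a cadherin of intestinal epithelium, was low in all libraries at 0.61 to 1.46 CPM in mutants, against 3.92 to 6.91 CPM in controls (−2.21 ± 0.41, edgeR adjusted p = 0.0198), and Dchs1, a partner of the cadherin Fat4, fell by 1.46 (edgeR adjusted p = 0.0389) from similarly low levels. Pcdh1, a protocadherin of epithelia, was the fourth (−1.35, edgeR adjusted p = 0.0421). Scaled by total count, Fat1 and Cdh17 fell and 0 rose (18.7% of all genes passed in either direction). Without mutant 1 the same 4 fell and Cdh10 rose, without mutant 2 or mutant 4 Fat1 and Cdh17 fell, without mutant 3 or control 2 Fat1 alone fell, and without control 1 or control 3 none passed in edgeR.

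Among 8 tested catenin relatives and partners (median log2 fold change 0.08) Jup, the gene of plakoglobin, which takes the place of β-catenin in desmosomes and can do so in adherens junctions, was the one that passed, in a table where 11.5% of all genes did. It had 366.4, 455.7, 405.1 and 315.7 CPM in mutants 1 to 4 and 796.9, 591.6 and 768.9 CPM in controls 1 to 3, a log2 fold change of −0.90 ± 0.20 (edgeR adjusted p = 0.0342), a fall close in size to that of Cdh1. Of 11 tested desmosome genes Jup and the plakophilin Pkp3 (−1.21, edgeR adjusted p = 0.0293) fell and 0 rose (median −0.50). Without mutant 1 it was 4 of 11 (29.5% of all genes passed), and with total count scaling 0 of the catenin relatives and 0 of the desmosome genes passed in edgeR. None of 4 tested relatives of the nectins passed in edgeR, and Pvr, the most abundant and a receptor of the same family, was at 96.8 to 224.7 CPM in mutants, against 267.1 to 339.2 CPM in controls (−0.97, edgeR adjusted p = 0.0888). The median of the 4 was −0.01, or 0.35 with total count scaling. With 1 library left out, Jup passed without mutant 1 or mutant 2 and Pkp3 without mutant 1 alone, and without mutant 1 Pvr fell and Cadm1, the gene of a nectin-like adhesion molecule, rose (edgeR).

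Genes that act on cadherins passed in small numbers in edgeR. Of 17 genes of cadherin processing and turnover, Ptpn1, a phosphatase that binds the cadherin tail, fell (−1.57, edgeR adjusted p = 0.0415) and 0 rose (median −0.46), a share under the 11.5% of all genes that passed. Yet 8 of the 17 lay lower and 2 higher in all mutants than in any control, beside 31.5% of all genes without overlap. With DESeq2, 4 of the 17 fell and 1 rose, where 16.9% of all genes passed. With total count scaling 0 of the 17 fell and Adam10, a protease that sheds E-cadherin, and the kinase gene Yes1 rose (median −0.12). Without mutant 1, Ptpn1 and Ptprk fell and Pcsk5 and Yes1 rose. Of 7 tested repressors of cadherin genes, Twist2 fell (edgeR adjusted p = 0.0236) and is named for being the one that passed. Its mutants lay between 0.235 and 0.42 CPM and its controls between 1.16 and 1.36 CPM. In the mutants 3 reads were worth 0.224 to 0.241 before TMM scaling, so the mutant values of Twist2 rest on a few reads. Twist2 did not pass in edgeR with no filter on low counts. With unstranded counts 6 repressors were tested and 0 passed in edgeR. Of the 7, 2 lay lower and 1 higher in all mutants than in any control. Snai1, the gene of Snail, was low throughout, at 0.28 to 1.04 CPM in mutants against 1.68 to 2.95 CPM in controls. It did not pass in edgeR (−1.86, adjusted p = 0.067) but did with DESeq2. The most abundant repressor, Tcf4, was at 31.7 to 114.5 CPM in mutants, against 64.2 to 67.1 CPM in controls (−0.15, edgeR adjusted p = 0.841). Mutant 1 was the one mutant with more Tcf4 than the controls, and without it Tcf4 fell (−0.66, edgeR adjusted p = 0.0396), as did Zeb1 and Twist2, while Tcf3 rose. The list's median was −0.62 with all libraries, and with total count scaling Twist2 fell and Tcf3 rose. Of 11 activators and keepers of the epithelial programme (median −0.79), Grhl2, which binds Cdh1 regulatory elements, rose by 0.80 (edgeR adjusted p = 0.0406), with 106.9 to 132.4 CPM in mutants, against 59.1 to 83.8 CPM in controls, and Ovol1, a transcription factor that represses mesenchymal genes, fell by 1.18 (edgeR adjusted p = 0.0337). Scaled by total count, Grhl2 alone passed, and without mutant 1 Grhl2 again rose and Ovol1 again fell. With 1 library left out, Ptpn1 and Grhl2 passed without mutant 1 alone, Ovol1 without mutant 1 or mutant 4, and Twist2 without mutant 1, 2 or 3 (edgeR).

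In the complex that degrades β-catenin, 2 of 9 genes fell and 0 rose (median −0.05), beside 6.18% of all genes that fell and 11.5% that passed in either direction. Of the 9, 4 lay lower and 1 higher in all mutants than in any control, beside 31.5% of all genes without overlap. With DESeq2, 4 of the 9 fell and 1 rose, where 16.9% of all genes passed. With total count scaling Apc fell and Amer1, the gene of an Apc-binding membrane protein, rose (median 0.31). Without mutant 1, Apc, Axin1 and Axin2 fell and Amer1 rose. Amer1 also rose without mutant 2 and with DESeq2. Its log2 fold change was 1.02 with an adjusted p of 0.0687 in edgeR with all libraries. Apc, its scaffold, had 310.1, 247.9, 228.2 and 229.3 CPM in mutants 1 to 4 and 803.2, 669.1 and 575.6 CPM in controls 1 to 3 (−1.43 ± 0.20, edgeR adjusted p = 0.01), and the mutants did not reach the controls. Axin1, the other scaffold, fell by 1.09 (edgeR adjusted p = 0.0286). Of 11 tested target genes of β-catenin, Myc fell (−0.94, edgeR adjusted p = 0.0451) and 0 rose (median 0.10). Axin2 (−2.44, edgeR adjusted p = 0.0667) and Sp5 (−2.73, edgeR adjusted p = 0.0791), textbook Wnt targets named after their values were seen, lay lower in all mutants than in any control and passed with limma-voom and DESeq2. Of the other tested targets, Lgr5 (1.14), Ccnd1 (0.91), Notum (0.78), Tcf7 (0.45), Rnf43 (0.41) and Nkd1 (0.10) had positive log2 fold changes. Cd44 (−1.43) and Znrf3 (−0.36) had negative ones. For all of these the groups overlapped, and none passed in edgeR with all libraries. With total count scaling 0 of the 11 passed in edgeR. Without mutant 1, Axin2, Cd44 and Myc fell and Ccnd1 and Tcf7 rose. With 1 library left out, Apc passed in 5 of 7 fits (not without control 1 or control 2), Axin1 without mutant 1 or mutant 4, and Myc without mutant 1 alone. Each of these lists was made with earlier results of these libraries known.

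**Figure D5:**
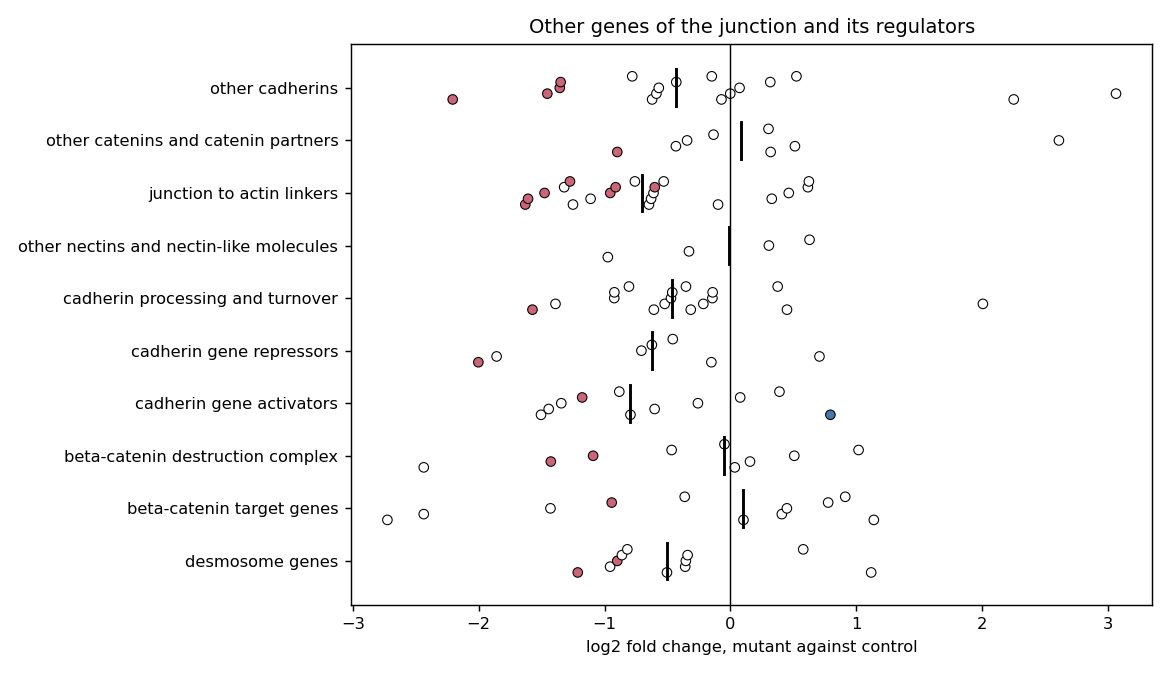
Fitted log2 fold change (x axis) of every tested gene in 10 lists of genes that share the junction or act on it, 1 point per gene; red points fell and the blue point, Grhl2, rose at an adjusted p of 0.05 in edgeR, open points did not pass, and the short line is the list median. The actin linkers have the most red points, 7 of 20 tested genes at a median of −0.70, and are also the list with the most tested genes. Of all tested genes, 6.18% fell.

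Markers of other cells were read beside these results. The summed level of 10 stromal fibroblast markers was 166.4 to 476 CPM in mutants, against 549 to 697.1 CPM in controls, with 1 of 10 lower (Dcn, −1.77, edgeR adjusted p = 0.00888, under the threshold in 5 of 7 fits with 1 library left out), and that of 5 mesothelial markers 9.39 to 39.8 CPM against 43.2 to 58.6 CPM, with 0 passing. Sums of smooth muscle markers (8.36 to 83.9 CPM against 68.3 to 108.5 CPM), endothelial markers (4.91 to 24.2 CPM against 20.5 to 26.6 CPM) and leukocyte markers (264.6 to 509.9 CPM against 392.5 to 502.9 CPM) overlapped, with 0 passing in edgeR. Lyz2 alone gave 129.1 to 246.1 CPM of the leukocyte sum in mutants. Cd3e, the 1 tested leukocyte marker without overlap, was at 0 to 2.52 CPM in mutants, against 7.09 to 18.5 CPM in controls. Its log2 fold change was −4.02 (edgeR adjusted p = 0.0617), and it passed with limma-voom and DESeq2. Without mutant 1, 4 of 6 tested smooth muscle markers (Acta2, Des, Myh11 and Tagln), 2 of 9 leukocyte markers (Cd3e and Nkg7) and 5 of 11 epithelial markers (Krt7, Krt8, Krt18, Spint1 and Spint2) fell, beside 14% of all genes. Without mutant 4, 3 of 5 mesothelial markers fell (Msln, Upk1b and Upk3b), without mutant 3 Col1a1, Col1a2 and Cd3e fell beside Dcn, and without mutant 2 Itgam and Krt7 fell (edgeR). None of the 6 marker lists had a gene that rose in these fits. No list had a marker at 0 in all 7 libraries, and the most abundant, among the smooth muscle, mesothelial, endothelial and leukocyte lists, were Acta2, Upk3b, Pecam1 and Lyz2. Of 11 epithelial markers, Krt8 (−1.02, with 26.9% of its sequence words shared with other genes and so uncertain) and Spint1 (−1.43) fell and 0 rose in edgeR, and with 1 library left out they passed in 1 and 3 of 7 fits. The part of any of these levels in the fall of Cdh1 was not tested.

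The genes whose log2 CPM followed that of Cdh1 most closely over the 7 libraries, among 4287 genes with a mean of at least 50 CPM, were Cebpb (Pearson r = 0.994), a transcription factor of the C/EBP family, Fbrs (0.993), Csnk1e (0.990), which encodes a casein kinase, Sertad2 (0.990), and Mprip (0.989), a myosin phosphatase interactor. Cebpb had 39.4, 54.8, 40.7 and 50.3 CPM in mutants 1 to 4 and 364.1, 248.2 and 360.8 CPM in controls 1 to 3. All 5 share with Cdh1 a gap between the groups. The 7 points fall into 2 separate groups that also differ in series and depth, so the values of r are a description only.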

How the data were processed

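The authors deposited, for each of the 7 libraries, a STAR table of raw read counts per gene (whole numbers), with 1 unstranded column and 2 stranded ones. Per the labels' protocols, directional mRNA libraries were made with a KAPA kit from the RNA of sorted cells. The tools were cutadapt, Trim Galore, FastQC, STAR (on mm10) and DESeq2, per the submitters' processing notes, with versions not given in the sources used here. The authors also deposited their own DESeq2 results, a table that holds log2 fold changes with standard errors, p-values and adjusted p-values.

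The reverse-stranded column was used, which held 94.8% to 95.6% of the stranded reads. Summary lines that name no gene stayed out; ambiguous reads were 1.06% to 1.29% of reads in mutants and 0.827% to 0.869% in controls. Of 53379 gene IDs, 53274 matched GENCODE M21 (GRCm38), the source of symbols, coordinates and exon lengths. STAR leaves out a read that overlaps 2 genes on its strand, which lowers genes such as Ctnnd1.

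The main test was edgeR's two-sided quasi-likelihood F test (edgeR 4.0.16, R 4.3.3; filterByExpr and TMM, with a genotype term alone, Benjamini-Hochberg adjustment over all 14610 genes, threshold 0.05), tested on simulated data first. CPM are reads per 1000000 of the TMM-scaled library, and SD is over libraries. DESeq2 1.42.0, limma 3.58.1 (voom), other scalings, unstranded counts, no filter on low counts, a replicate block and leaving out each library were the alternatives. Since each mutant library is 1 mouse and each control a pool, the p-values reflect the spread between such libraries. All library pairs of a group differed by more than sampling noise (lowest chi-square per degree of freedom 58).

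The 10 genes and all lists were chosen with earlier results of these data known. Named were all 10 genes, Smarca4, Epcam, in each list up to 3 called genes of largest log2 fold change whose mean reached 1 CPM (or its most abundant gene where none was called), and the 5 genes most like Cdh1; any other gene was chosen after its values were seen. Shared sequence was measured as 50-base words of a gene's exons found in another gene. Promoter sequences are from RefSeq (GRCm38.p6). The list of tight junction genes and some single genes of other lists are not reported here.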

Additional observations from a re-analysis of the deposited data

Results flagged for a closer look

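Cdh2 in mutant 4 stood apart from the other mutants, at 1.71 CPM against 0 to 0.28 CPM. Its gap to the nearest mutant was 0.836 of the range of the group, past Dixon's limit for 4 values. In all, 23 groups of 4 libraries were examined in this way, and chance marks about 1 group in 20. The value rests on 28 reads.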

How the results depend on the processing

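The log2 fold changes of the 9 tested genes were recomputed 135 times, 15 alternatives for each gene: in 110 the direction and the side of the threshold stayed as reported, in 9 the call was lost (all of Cdh1), in 5 a call was gained and in 11 the sign turned, for values near 0. The sign turned for Cdh3 with total count scaling (0.027), for Ctnnb1 with unstranded counts (−0.09; −0.046 to 0.29 with 1 library left out), and for Afdn with upper-quartile scaling (0.13), total count scaling (0.34), unstranded counts (0.026) and the replicate block (0.023; −0.066 to 0.053 with 1 library left out). The 1687 genes called became 2734 with total count scaling, 1057 with no filter on low counts, 3269 with DESeq2 and 133 to 4403 with 1 library left out. Of the adherens junction genes, 0 were called in edgeR with no filter (5 at an unadjusted p under 0.05), 2 with DESeq2 (Cdh1 and Ctnna1) and 0 to 4 with 1 library left out, 0 being the count without any library other than mutant 1 (2 to 4 at an unadjusted p under 0.05). With total count scaling the 1 gene called was Nectin4 in place of Cdh1, and the share of higher genes among all called moved from 46.5% to 80.5% (62.6% with upper-quartile scaling, where the median log2 fold change of all genes was 0.20). The cause of these changes was not tested. The mutants are individual mice and the controls pools from an earlier series, so the replicate numbers do not pair mutants with controls. Same-numbered libraries deviated with correlations of −0.02, −0.36 and 0.16, and other pairs with −0.29 to 0.35, which alone could not decide this. With the replicate block, 2 genes and 0 of the adherens junction genes were called in edgeR (3 at an unadjusted p under 0.05). Genes at a few reads, such as Cdh2 and Cdh3, are limited by depth.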
